A study of Mus musculus with 23 samples.

Results

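The 75 genes described here encode mitochondrial ribosomal proteins, 75 of the 11637 genes tested in this series. They were chosen by name, as every entry of the deposited table whose symbol is MRPL or MRPS followed by a number and at most 1 letter. The table lists 76 such symbols and gives values for 75, and MRPS12 was listed without values. All 75 passed the filter of 1 CPM (counts relative to the library's total) in at least 4 libraries, and each exceeded 1 CPM in all 23 libraries. The lowest single values were 4.67 CPM for MRPL23 and 4.78 CPM for MRPS6, so no member lay near the filter. The symbols are the human ones, used by the table for mouse genes.

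RNA sequencing was done on 23 libraries. The 14 tumor libraries came from 8 mice that carry the IL6Myc transgenes and whose tumors the labels call malignant plasma cells: 7 from the mesenteric lymph node (MLN) and 7 from the spleen, with 6 mice giving both. The controls were splenic B cells of wild-type Balb/c mice, 5 libraries of cells cultured with lipopolysaccharide (LPS, a bacterial mitogen) at 1 µg/ml for 16 hours, here called activated, and 4 libraries of quiescent cells. Cells of all groups, tumors included, had passed a magnetic bead sort that keeps B cells by removing other lineages; the labels used here give neither the promoter of the transgenes nor the age of the mice.

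Mitochondria translate their own small set of messenger RNAs, all for subunits of the respiratory chain and the ATP synthase, on a ribosome that differs from the one in the cytosol. Its RNAs are encoded in the mitochondrial genome, whereas all of its proteins are encoded in the nucleus, made in the cytosol and imported. Some of these proteins descend from bacterial ribosomal proteins and others were added in the mitochondrial lineage. By this division the members comprised 30 large-subunit proteins with a bacterial counterpart, 20 mitochondria-specific large-subunit proteins, 14 small-subunit proteins with a bacterial counterpart and 11 mitochondria-specific small-subunit proteins. MRPS30 and MRPS18A, despite their names, sit in the large subunit and were counted there.

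Promoters of 66 members were found in RefSeq (mouse build GRCm38.p6), 72 windows in all, each from 250 bases before to 50 bases after an annotated start. 5 short motifs were searched on both strands, in forms chosen after the windows had been searched with several forms. The letters CCGGAAG, the core that ETS family factors such as GABPA recognise, occurred in 33.3% of member windows and in 8.86% of all 32851 RefSeq windows of that length. The motif of the nuclear respiratory factor NRF1, GCGC and TGCGC with any base between them, occurred in 15.3% against 4.6%, and AAGATGGC, recognised by YY1, in 15.3% against 2.75%. The E-box CACGTG, to which MYC binds, occurred in 9.72% of member windows against 7.15% of all windows, and the TATA letters TATAAA in 6.94% against 13.6%. The member windows with the E-box were 7, from only 5 genes, since a gene can have several starts. All windows were not limited to genes tested here. The ETS and YY1 letters can share the bases AAG, and a window can hold several motifs. A match describes the letters only. The 100 bases directly before the start are shown for 6 members that recur below, in capitals the motif on either strand. The first 3 carry the NRF1 letters and belong to genes among the 5 highest changes in tumors against quiescent cells (chr14:57826139-57826238, plus strand, chr11:120484537-120484636, plus strand, and chr7:105811088-105811187, minus strand). They were picked for display. The 11 members with the NRF1 letters had a median log2 change of 0.27 in that comparison, against 0.45 over all members. Mrpl20 carries an E-box (chr4:155802778-155802877, plus strand). Mrps27 and Mrps22 carry the ETS letters and have, after MRPS6, the largest falls in tumors against activated cells (chr13:99344686-99344785, plus strand; chr9:98601680-98601779, minus strand).
Mrpl57: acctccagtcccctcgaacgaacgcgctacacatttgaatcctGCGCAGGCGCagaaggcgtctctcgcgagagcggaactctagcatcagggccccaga
Mrpl12: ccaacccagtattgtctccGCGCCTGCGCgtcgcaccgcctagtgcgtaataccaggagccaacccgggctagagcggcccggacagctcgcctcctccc
Mrpl17: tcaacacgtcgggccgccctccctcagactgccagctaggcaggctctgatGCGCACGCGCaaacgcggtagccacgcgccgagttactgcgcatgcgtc
Mrpl20: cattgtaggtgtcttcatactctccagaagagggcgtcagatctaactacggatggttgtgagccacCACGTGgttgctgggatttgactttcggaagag
Mrps27: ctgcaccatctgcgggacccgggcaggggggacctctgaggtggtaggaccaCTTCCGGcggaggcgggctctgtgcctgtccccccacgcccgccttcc
Mrps22: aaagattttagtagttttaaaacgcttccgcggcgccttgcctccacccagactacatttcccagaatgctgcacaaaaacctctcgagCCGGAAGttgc

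The libraries held between 13328866 and 25045814 estimated counts. Immunoglobulin genes took 1.03% to 26.3% of the counts in tumor libraries, and 4 of them (spleen tumors of mice 1610, 1612 and 1615, MLN tumor of mouse 1611) lay below the lowest quiescent library at 2.24%. Of the plasma cell markers fixed for the label check, all 7 were detected in tumors, with a summed level from 797.8 to 26842.7 CPM in tumor libraries, from 1160.1 to 1195.0 in activated and from 1855.1 to 2259.9 in quiescent libraries. Macrophage markers (8 genes) summed to between 233.5 and 4134.3 CPM in tumor libraries, between 9.06 and 21.4 in activated libraries, where CSF1R, CD14, C1QA, C1QC and VSIG4 were under 0.5 CPM, and between 29.0 and 262.1 in quiescent libraries. The 6 erythroid markers summed to between 12.5 and 3746.1 CPM in tumor libraries, to at most 2.36 in activated and to at most 23.5 in quiescent libraries. The 5 neutrophil markers summed to between 7.44 and 1557.7 CPM in tumor libraries, to at most 4.71 in activated and to at most 3.92 in quiescent libraries, and all 5 were higher in tumors than in either control. The 7 stromal and endothelial markers summed to between 6.9 and 387.2 CPM in tumor libraries. They reached at most 7.91 CPM in activated and at most 6.76 CPM in quiescent libraries. Of these markers 6 were higher in tumors than in quiescent cells, where CDH5 did not pass. Against activated cells 6 were higher in tumors and PDGFRB was lower (log2 change -0.72). The 9 T cell markers summed to between 35.3 and 571.0 CPM in tumor libraries. Their sum was between 73.8 and 89.6 CPM in activated and between 268.1 and 282.9 CPM in quiescent libraries. Taken singly, 6 were higher in tumors than in quiescent cells and 1, CD2, was lower. Against activated cells 8 were higher in tumors and 0 lower. The 8 B cell markers summed to between 154.8 and 10285.5 CPM in tumor libraries, between 8881.7 and 9996.3 in activated and between 14909.8 and 15732.0 in quiescent libraries. All 8 were lower in tumors than in quiescent cells, with a median log2 change of -1.48, and 1 was higher and 4 were lower in tumors than in activated cells. The summed level of the Y-linked genes DDX3Y, UTY and KDM5D was at most 0.941 CPM in activated and at least 354 CPM in quiescent libraries, so the source of the cells and the LPS treatment cannot be told apart in that comparison. In tumor mice it was at most 22.1 CPM in 3 mice (1612, 1613 and 1614) and at least 140 CPM in the other 5. In bulk samples such as these, fewer cells of a type and less RNA per cell cannot be told apart, and the part of other cell types in the results below was not tested. Nothing in the labels tells whether each control library is a separate animal, so the spread among controls may be technical. Tumor mice and controls were fitted together with a shared spread. The p-values of activated against quiescent cells thus also carry the spread among tumor mice.

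The summed level of the 75 members ranked activated above tumor above quiescent. The members summed to between 2336 and 4091 CPM in MLN tumors (median 3017.0) and to between 2530 and 3666 CPM in spleen tumors (median 2874.0). The activated libraries held 3576, 3521, 3234, 3429 and 3269 CPM, and the quiescent libraries 2103, 2125, 2142 and 2143 CPM. Every tumor library lay above every quiescent library, while the tumors spanned the activated range, with the MLN tumors of mice 1610 and 1616 (4065 and 4091 CPM) and the spleen tumor of mouse 1616 (3666 CPM) above it. The order activated above tumor above quiescent held for the group means of 52 of 75 members, or 69.3%, against 17.5% of all tested genes. A further 14 members (18.7%, against 15.0% of all genes) had tumor above activated above quiescent, and the order quiescent above activated above tumor, seen in 16.6% of all genes, was found in 0 members.

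**Figure D1:**
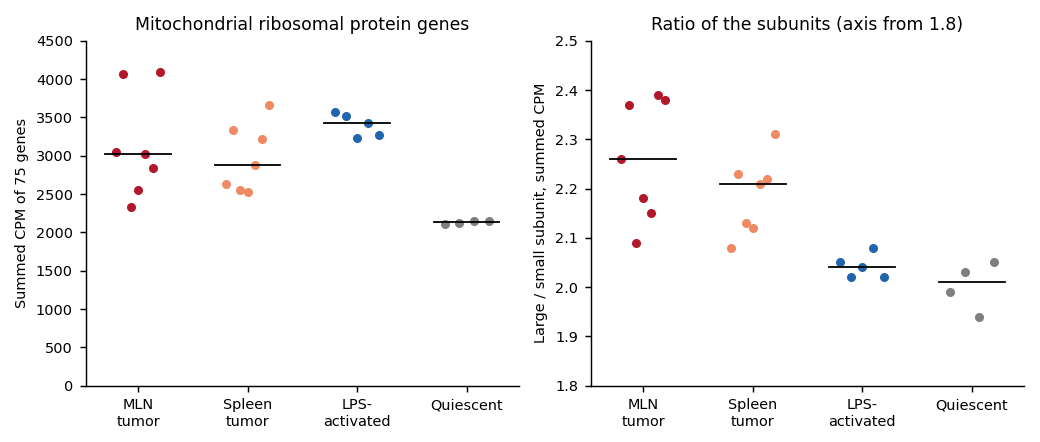
Summed level of the 75 members in CPM, and ratio of summed large-subunit to summed small-subunit members, for each library (1 point per library) by group. All tumor libraries lie above the quiescent range of 2103 to 2143 CPM, and the ratio is 2.08 to 2.39 in tumors, 2.02 to 2.08 in activated and 1.94 to 2.05 in quiescent cells.

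The balance between the subunits also differed between groups. The summed level of the 50 large-subunit members divided by that of the 25 small-subunit members was 2.09 to 2.39 in MLN tumors (median 2.26) and 2.08 to 2.31 in spleen tumors (median 2.21). It was 2.05, 2.02, 2.04, 2.08 and 2.02 in activated libraries and 1.99, 2.03, 1.94 and 2.05 in quiescent libraries. Tumor ratios thus started where the activated ones ended and lay wholly above the quiescent ones. Since counts were not divided by transcript length, longer transcripts weigh more, and the ratio is no ratio of protein numbers. With MRPL37 left out, a choice made after its values were seen, the ratio was 2.01 to 2.21 in tumor, 1.96 to 2.02 in activated and 1.87 to 1.97 in quiescent libraries, so that tumors still lay above quiescent cells and overlapped activated ones.

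The comparison of tumors with quiescent cells asks how the bulk tumor samples, which also hold markers of other cell types, differ from resting B cells. Mitochondrial ribosomal protein genes were higher in tumors: 52 of 75 passed the threshold (adjusted p under 0.05) as higher and 0 as lower, where 36.9% of all tested genes were higher and 31.9% lower. Their median log2 change was 0.45, from -0.27 to 1.42, against 0.08 over all genes. With the tumors of a mouse summed and all samples scaled together, the 8 tumor mice lay wholly above the 4 quiescent libraries for 39 members and wholly below for 0, against 23.4% and 24.2% of all genes. Later statements on groups by mouse, and counts of groups that do not overlap, use that scale, which differs slightly from the one of single libraries. Changes here and below are from edgeR's quasi-likelihood test with Benjamini-Hochberg adjustment over all 11637 genes, given with the standard error (SE), over 8 tumor mice (the tumors of a mouse summed), 5 activated and 4 quiescent libraries.

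In the large subunit, 36 of 50 members rose, 23 of the 30 with a bacterial counterpart and 13 of the 20 specific to mitochondria. MRPL57, a small mitochondria-specific protein, had 22.3 to 97.1 CPM in MLN tumors (median 48.2) and 22.4 to 123.2 CPM in spleen tumors (median 36.2), against 18.0, 20.6, 15.8 and 18.4 CPM in quiescent libraries. All 14 tumor libraries were above all quiescent ones, the spleen tumor of mouse 1616 farthest. It rose by 1.42 ± 0.27 on the log2 scale (adjusted p = 0.000315), the largest change of a member in this comparison. MRPL12, the member of the flexible stalk that recruits translation factors and is also known to bind the mitochondrial RNA polymerase, had 64.7 to 145.1 CPM in MLN tumors (median 93.9) and 63.6 to 126.1 CPM in spleen tumors (median 87.4), against 34.8, 37.2, 43.0 and 39.7 CPM in quiescent libraries. Its groups did not overlap, and it rose by 1.21 ± 0.14 (adjusted p = 4.07e-06). MRPL11, which sits at the base of that stalk, rose by 0.43 ± 0.09 (adjusted p = 0.000453), while MRPL10, which anchors MRPL12, was at 0.08 ± 0.08 (adjusted p = 0.379).

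MRPL17, the counterpart of bacterial L17, had 31.9 to 120.3 CPM in MLN tumors (median 46.3) and 32.8 to 74.6 CPM in spleen tumors (median 42.4), against 20.4, 23.7, 20.5 and 25.5 CPM in quiescent libraries. MRPL13, the counterpart of bacterial L13, had 27.7 to 108.1 CPM in MLN tumors (median 54.4) and 27.1 to 139.7 CPM in spleen tumors (median 43.4), against 20.5, 29.2, 28.9 and 28.1 CPM in quiescent libraries. For MRPL17 every tumor library was above every quiescent one, whereas for MRPL13 the lowest tumor library of each site fell inside the quiescent range. MRPL17 rose by 1.19 ± 0.23 (adjusted p = 0.000306) and MRPL13 by 1.07 ± 0.25 (adjusted p = 0.00124). MRPL3, which reaches towards the catalytic centre, rose by 0.28 ± 0.09 (adjusted p = 0.0129), and MRPS30 and MRPS18A rose by 0.35 ± 0.07 (adjusted p = 0.000551) and 0.47 ± 0.13 (adjusted p = 0.00372). MRPL44, related to RNase III enzymes, and MRPL41 did not pass, at 0.11 ± 0.09 (adjusted p = 0.28) and 0.13 ± 0.09 (adjusted p = 0.204). MRPL49, a mitochondria-specific protein, stood at -0.07 ± 0.09 (adjusted p = 0.483).

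In the small subunit 16 of 25 members rose, 9 of the 14 with a bacterial counterpart and 7 of the 11 specific to mitochondria. MRPS28, related to part of bacterial S1, had 13.4 to 34.9 CPM in MLN tumors (median 24.7) and 14.4 to 44.4 CPM in spleen tumors (median 20.3), against 9.1, 9.56, 8.91 and 10.2 CPM in quiescent libraries. It did not overlap between groups and rose by 1.25 ± 0.20 (adjusted p = 5.48e-05). MRPS2, the counterpart of bacterial S2, rose by 0.71 ± 0.15 (adjusted p = 0.000555), and MRPS18B and MRPS18C, paralogs of MRPS18A that sit in the small subunit, rose by 0.84 ± 0.22 (adjusted p = 0.00303) and 0.39 ± 0.09 (adjusted p = 0.00177). MRPS27, an RNA-binding pentatricopeptide repeat protein, rose by 0.54 ± 0.15 (adjusted p = 0.00468). MRPS36, counted here in the small subunit, is known as a component of the 2-oxoglutarate dehydrogenase complex of the tricarboxylic acid cycle. Its rise of 0.19 ± 0.08 lay at the edge of the threshold (adjusted p = 0.0497). The rise did not pass, or changed sign, in 20 of 28 other settings (adjusted p up to 0.454).

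The members with the lowest changes were all in the small subunit apart from MRPL49, and none passed. MRPS6, the counterpart of bacterial S6, had 4.78 to 10.3 CPM in MLN tumors (median 6.3) and 5.12 to 11.5 CPM in spleen tumors (median 7.71), against 11.6, 9.07, 10.2 and 6.78 CPM in quiescent libraries, a log2 change of -0.27 ± 0.19 (adjusted p = 0.222). MRPS35, a mitochondria-specific protein, had 23.6 to 43.6 CPM in MLN tumors (median 29.0) and 21.9 to 40.2 CPM in spleen tumors (median 27.2), against 35.3, 34.9, 35.3 and 36.0 CPM in quiescent libraries, a log2 change of -0.26 ± 0.11 (adjusted p = 0.0515). In both genes the tumor range contained or overlapped the quiescent values. MRPS16 and MRPS25 stood at -0.20 ± 0.09 (adjusted p = 0.0652) and -0.05 ± 0.18 (adjusted p = 0.809), the sign of MRPS25 turning in several settings.

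With the 5 tumor mice of high Y-linked expression alone, 58 members were higher and 0 lower. Over all genes 4311 were then higher and 3723 lower, against 4289 and 3709 with all tumor mice. Without the 4 low-immunoglobulin tumor libraries, 53 members were higher and 1 lower, and the change of MRPL57 was 1.81. Over all genes 4497 were then higher and 3545 lower. Quantile scaling moved the median of all genes to -0.11 and the share of higher among all called genes to 39.6%, against 53.6%; under it 37 members were higher, 3 were lower, and their median was 0.31.

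**Figure D2:**
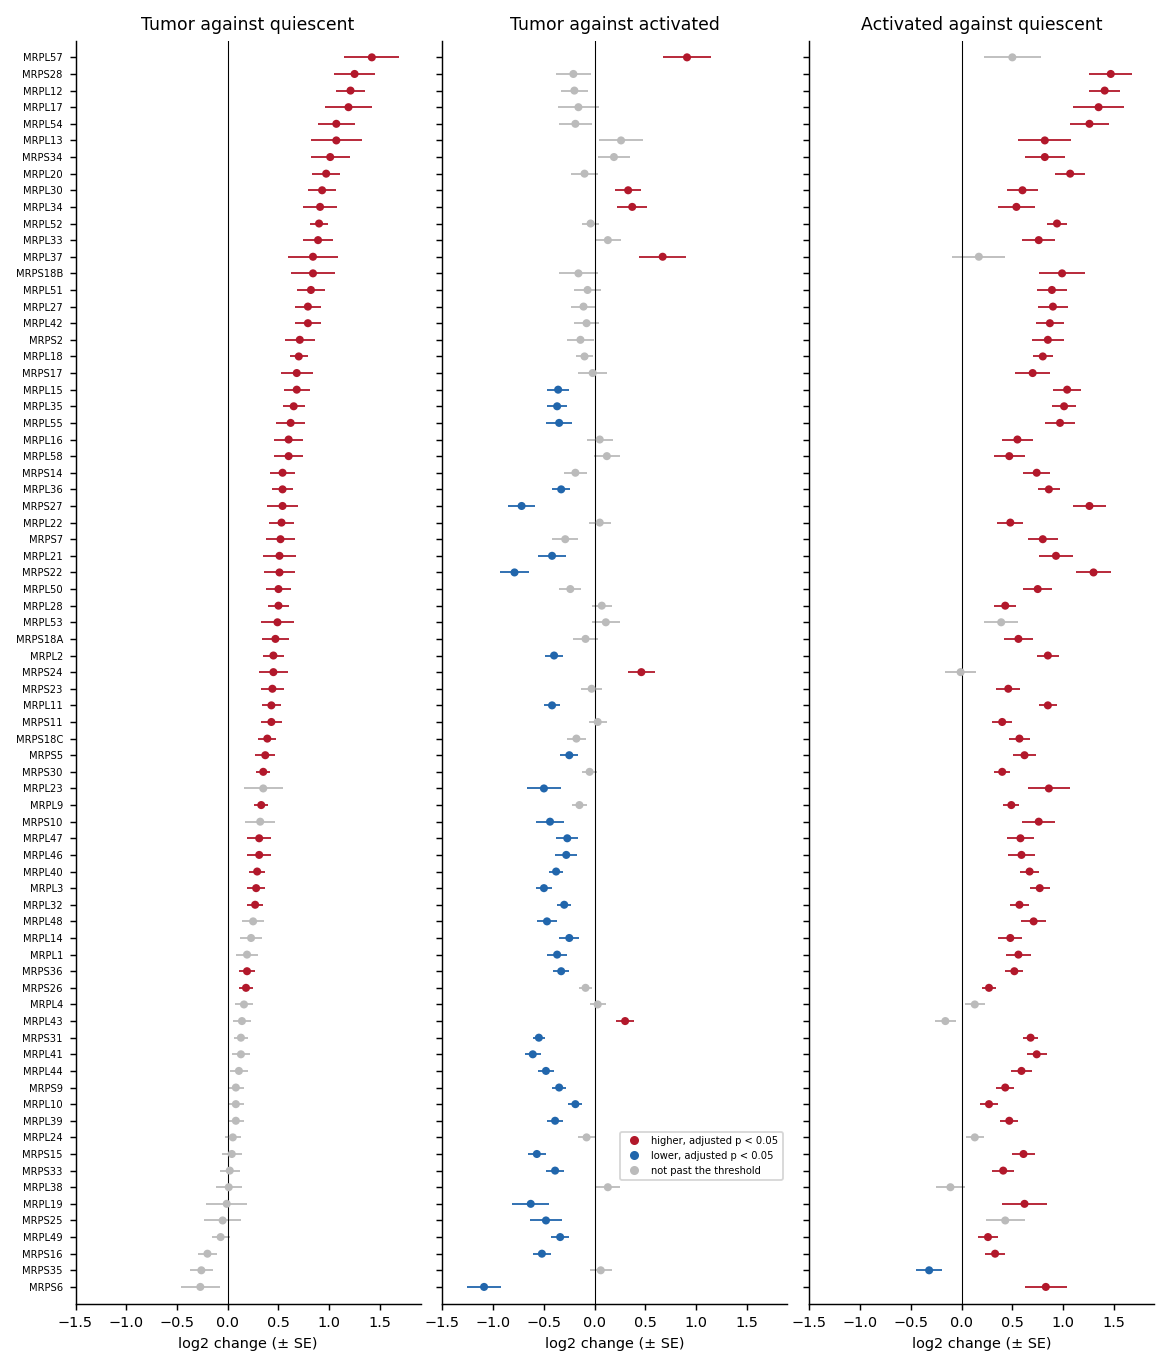
Log2 change of each of the 75 members with its standard error in tumors against quiescent cells, tumors against activated cells and activated against quiescent cells, ordered by the first; red marks higher, blue lower and grey not past the threshold. 52 members are red in the first panel, 6 are red and 34 blue in the second, and 65 are red and 1 blue in the third.

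Against activated cells the members divided. This comparison sets the bulk tumor samples, which also hold markers of other cell types, against LPS-activated B cells of wild-type mice. Of 75 members 6 were higher and 34 lower in tumors, against 36.2% and 27.0% of all tested genes, and the median log2 change was -0.19, from -1.09 to 0.91, against 0.09 over all genes. For 3 members the tumor mice lay wholly above the activated libraries and for 19 wholly below, against 22.3% and 17.6% of all genes. In the large subunit 5 of 50 were higher and 22 lower, and in the small subunit 1 of 25 was higher and 12 were lower. The counts rested in part on mouse 1616: without it 3 members were higher and 55 lower, with a median of -0.40. All genes moved the same way, to 3967 higher and 4232 lower from 4214 and 3143, with a median of -0.03. With the 3 tumor mice of low Y-linked expression alone, 1 member was higher and 58 were lower, with a median of -0.47. Over all genes 3789 were then higher and 4098 lower, with a median of -0.04. Without the 4 low-immunoglobulin tumor libraries 7 were higher and 25 lower, with a median of -0.09. Over all genes 4029 were then higher and 3283 lower, with a median of 0.06.

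The largest falls were in the small subunit. MRPS6 reached at most 11.5 CPM in tumor libraries, against 20.0, 19.5, 13.8, 18.6 and 15.3 CPM in activated libraries, so that the groups did not overlap. It was lower in tumors by a log2 change of -1.09 ± 0.17 (adjusted p = 5.21e-05). MRPS22, a mitochondria-specific protein needed for small-subunit assembly, had 13 to 25.2 CPM in MLN tumors (median 20.8) and 14 to 27.0 CPM in spleen tumors (median 17.7), against 38.3, 35.1, 33.6, 33.9 and 33.1 CPM in activated libraries. No tumor library reached an activated one, and the log2 change was -0.79 ± 0.14 (adjusted p = 0.000105). MRPS27 had 18.7 to 40.6 CPM in MLN tumors (median 27.2) and 19.8 to 36.6 CPM in spleen tumors (median 23.5), against 48.6, 49.6, 38.7, 40.9 and 46.5 CPM in activated libraries. Only the MLN tumor of mouse 1616 reached into the activated range, and the log2 change was -0.72 ± 0.13 (adjusted p = 0.000191). MRPS22 and MRPS27 are the genes whose upstream ETS letters are shown above, and both also lay higher in tumors than in quiescent cells.

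In the large subunit MRPL19, the counterpart of bacterial L19, had 17.2 to 49.9 CPM in MLN tumors (median 32.0) and 20.8 to 61.6 CPM in spleen tumors (median 35.3), against 57.7, 52.5, 47.0, 67.5 and 46.5 CPM in activated libraries. MRPL41, a mitochondria-specific protein, had 14.2 to 21.9 CPM in MLN tumors (median 17.2) and 16.5 to 24.6 CPM in spleen tumors (median 21.9), against 35.9, 34.6, 28.6, 28.9 and 27.3 CPM in activated libraries. The MRPL41 libraries did not overlap, whereas MRPL19 overlapped by library but not by mouse. MRPL19 fell by a log2 change of -0.63 ± 0.18 (adjusted p = 0.00558) and MRPL41 by one of -0.61 ± 0.08 (adjusted p = 1.01e-05). MRPL3 at -0.50 ± 0.08 (adjusted p = 7.12e-05), MRPL44 at -0.48 ± 0.08 (adjusted p = 7.07e-05), MRPL11 at -0.42 ± 0.08 (adjusted p = 0.000195) and MRPS36 at -0.33 ± 0.08 (adjusted p = 0.00121) were also lower in tumors. MRPL12, MRPS2, MRPS18A, MRPS18B, MRPS18C and MRPS30 did not pass, with log2 changes of -0.20, -0.14, -0.09, -0.16, -0.18 and -0.05, but all of these passed as lower without mouse 1616.

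The 6 members higher in tumors than in activated cells were 5 large-subunit proteins and MRPS24. MRPL57 had 22.3 to 123.2 CPM in tumor libraries, against 30.0, 27.6, 24.9, 24.5 and 27.7 CPM in activated libraries. The libraries overlapped, but the 8 tumor mice, from 30.0 to 113.3 CPM, lay above the activated libraries, which reached 29.6 CPM on the scale of that fit. The log2 change was 0.91 ± 0.24 (adjusted p = 0.00375), and 0.53 without mouse 1616. MRPL37, a mitochondria-specific protein, had 53.8 to 259.2 CPM in MLN tumors (median 89.9) and 56.6 to 138.3 CPM in spleen tumors (median 63.0), against 66.5, 68.2, 59.0, 63.9 and 56.9 CPM in activated libraries. The groups overlapped and its log2 change of 0.67 ± 0.23 (adjusted p = 0.0173) rested on mouse 1616, without which it was 0.37 and did not pass (adjusted p = 0.0515, from 0.00493 to 0.39 over all settings).

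MRPS24, the counterpart of bacterial S3, had 39.5 to 80.6 CPM in MLN tumors (median 50.1) and 39.7 to 74.8 CPM in spleen tumors (median 47.1), against 40.6, 42.4, 39.3, 36.0 and 38.3 CPM in activated libraries. MRPL43, mitochondria-specific, had 44.1 to 66.0 CPM in MLN tumors (median 48.5) and 42.4 to 62.9 CPM in spleen tumors (median 46.0), against 41.9, 43.3, 40.6, 40.0 and 39.7 CPM in activated libraries. By mouse, both genes lay wholly above the activated libraries, and they were higher by 0.46 ± 0.13 (adjusted p = 0.00457) and 0.30 ± 0.09 (adjusted p = 0.00679). Without mouse 1616 these changes were 0.25 and 0.13. MRPL34, the counterpart of bacterial L34, had 20.4 to 56.9 CPM in MLN tumors (median 29.0) and 21.2 to 35.6 CPM in spleen tumors (median 25.5), against 24.6, 25.4, 22.5, 24.1 and 25.1 CPM in activated libraries. MRPL30, the counterpart of bacterial L30, had 48.8 to 100.1 CPM in MLN tumors (median 67.2) and 48.2 to 106.9 CPM in spleen tumors (median 61.1), against 58.9, 57.1, 49.5, 56.4 and 59.5 CPM in activated libraries. Both overlapped, with changes of 0.37 ± 0.15 (adjusted p = 0.0436) and 0.33 ± 0.13 (adjusted p = 0.0338). Without mouse 1616 these were 0.16 and 0.11, at adjusted p of 0.232 (0.0155 to 0.446 over all settings) and 0.166 (0.00674 to 0.346).

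**Figure D3:**
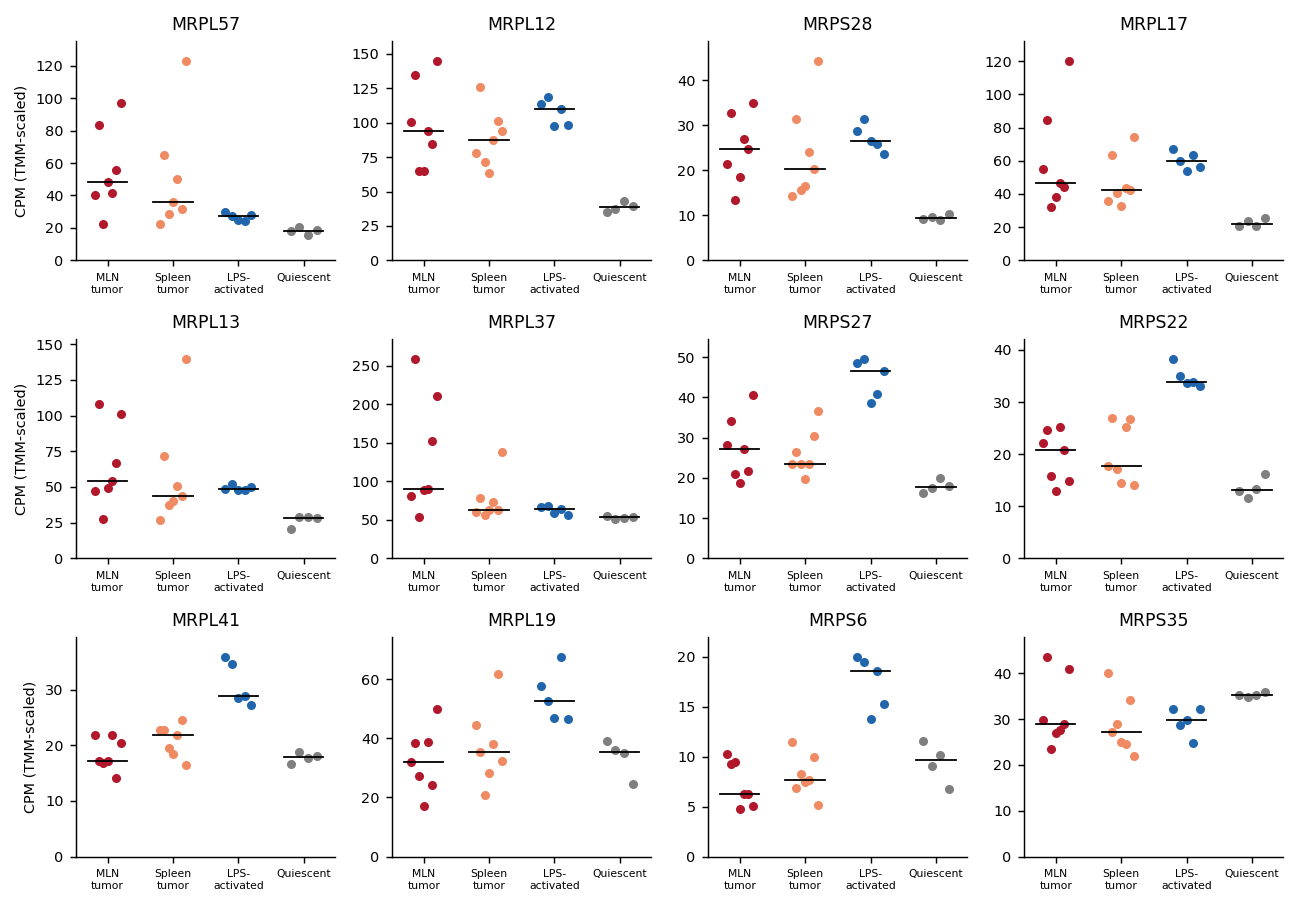
Level in CPM, scaled by TMM, of 12 members described in the text, 1 point per library and a line at the group median, with MLN tumors, spleen tumors, activated and quiescent cells from left to right. MRPS22 and MRPL41 in tumors lie below all activated libraries, and the tumor libraries of MRPL57 reach 123.2 CPM and those of MRPL37 259.2 CPM.

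Most members had higher levels after activation. In activated against quiescent cells, 65 of 75 members were higher and 1 was lower, against 25.5% and 34.1% of all tested genes. The median log2 change was 0.62, from -0.32 to 1.47, against -0.15 over all genes. For 69 members the activated libraries lay wholly above the quiescent ones and for 2 wholly below, against 29.8% and 38.1% of all genes. Of large-subunit members 43 of 50 rose, and of small-subunit members 22 of 25. Tumors against quiescent cells and activated against quiescent cells share the quiescent libraries, so their values are set side by side below without a measure of likeness.

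MRPS28 had 28.8, 31.4, 26.6, 25.9 and 23.7 CPM in activated libraries against the 8.91 to 10.2 CPM of quiescent ones, a rise of 1.47 ± 0.21 (adjusted p = 1.82e-05). MRPL12 had 113.9, 118.7, 97.9, 110.3 and 98.6 CPM in activated libraries, a rise over quiescent cells of 1.41 ± 0.15 (adjusted p = 9.75e-07). MRPL17 had 67.2, 59.9, 53.8, 63.5 and 56.4 CPM in activated libraries, a rise of 1.35 ± 0.25 (adjusted p = 0.000175). These 3 genes were also among the 5 highest in tumors against quiescent cells, at 1.25, 1.21 and 1.19. MRPS22, at 33.1 to 38.3 CPM in activated libraries, against 13, 11.6, 13.3 and 16.2 CPM in quiescent libraries, rose by 1.30 ± 0.17 (adjusted p = 5.86e-06) with activation, against 0.51 ± 0.15 in tumors over quiescent cells (adjusted p = 0.007). MRPS27, at 38.7 to 49.6 CPM in activated libraries, against 16.2, 17.6, 19.9 and 18.0 CPM in quiescent libraries, rose by 1.26 ± 0.16 (adjusted p = 6.53e-06) with activation. MRPL54, mitochondria-specific, rose by 1.26 ± 0.19 (adjusted p = 3.64e-05).

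Other members named above rose too. MRPL13, at 48.4, 52.3, 47.9, 48.0 and 49.7 CPM in activated libraries, rose by 0.82 ± 0.26 (adjusted p = 0.0129). MRPL11 and MRPS2 rose by 0.85, MRPL3 by 0.77, MRPL44 by 0.59, MRPS18A by 0.56, MRPS18B by 0.99, MRPS18C by 0.57, MRPS36 by 0.52 and MRPS30 by 0.40. MRPS6 rose by 0.83 ± 0.21 (adjusted p = 0.00319), MRPL41 by 0.74 ± 0.10 (adjusted p = 8.98e-06) and MRPL19 by 0.62 ± 0.22 (adjusted p = 0.0205). For these 3 the tumors thus lay lower than activated cells and did not pass against quiescent cells.

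The 5 lowest members held no rise that passed. MRPS35 had 32.2, 28.7, 29.9, 24.9 and 32.2 CPM in activated libraries, all below the quiescent 34.9 to 36.0 CPM. It fell by a log2 change of -0.32 ± 0.13 (adjusted p = 0.035), a call lost in 13 of 25 other settings (adjusted p from 0.012 to 0.147). MRPL43 had 39.7 to 43.3 CPM in activated libraries, against 43.0, 42.4, 45.0 and 44.8 CPM in quiescent libraries, and MRPS24 had 36.0 to 42.4 CPM in activated libraries, against 36.6, 36.5, 37.3 and 40.9 CPM in quiescent ones. Their changes with activation were -0.16 ± 0.10 (adjusted p = 0.192) and -0.01 ± 0.15 (adjusted p = 0.967), and the sign for MRPS24 turned in 10 of 25 other settings. MRPL38 stood at -0.11 ± 0.14 (adjusted p = 0.528) and MRPL4 at 0.13 ± 0.10 (adjusted p = 0.258). MRPL57 stood at 0.50 ± 0.28 (adjusted p = 0.138) and MRPL37 at 0.17 ± 0.26 (adjusted p = 0.592), where MRPL37 had 56.9 to 68.2 CPM in activated libraries, against 55.2, 51.5, 53.0 and 53.8 CPM in quiescent libraries. In this fit MRPL57, MRPL37, MRPS24 and MRPL43 thus had higher levels in tumors than in activated cells and no rise with activation that passed. For MRPL57 every activated library nevertheless lay above every quiescent one. With only the control libraries fitted, 71 members were higher with activation and 1 lower, and MRPL57, MRPL37 and MRPL4 were among those higher.

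No member passed the test between the tumor sites. In MLN against spleen tumors, over 7 libraries each, 0 of 75 members passed in edgeR in either direction, as did 0.0% of all genes. For 0 members the libraries of the sites did not overlap, against 0.00859% of all genes wholly higher and 0.0172% wholly lower in MLN tumors. At an unadjusted p under 0.05 there were 511 genes, among them 1 member, MRPL37. DESeq2 called 16 genes higher and 4 lower and 0 members. The median log2 change of the members was 0.04, from -0.30 to 0.79, against -0.03 over all genes. MRPL37 had the highest, 0.79 ± 0.33 (adjusted p = 1.0). In the 6 mice that gave both tumors, the members summed to 4065 CPM in the MLN and 2635 in the spleen tumor of mouse 1610, where 65 of 75 were higher in the MLN tumor. In mouse 1611 the sums were 2336 CPM in the MLN and 3335 CPM in the spleen tumor, with 11 higher in the MLN tumor. In the others they were 2555 and 2530 CPM (mouse 1613), 3017 and 2874 CPM (mouse 1614), 2836 and 3224 CPM (mouse 1615) and 4091 and 3666 CPM (mouse 1616) in MLN and spleen tumors. The site with more of these transcripts thus varied from mouse to mouse.

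For these members the tumor libraries varied more among themselves than the control libraries did, which may not be separate animals. The spread of all genes was not set beside that of the members. The SD of a member's log2 CPM had a median of 0.30 over the 14 tumor libraries (0.07 to 0.74), against 0.09 in activated and 0.10 in quiescent libraries. MRPS31 had the lowest tumor SD, 0.07, and MRPL57, MRPL37 and MRPL13 the highest, 0.74, 0.72 and 0.69. The highest tumor library was the MLN tumor of mouse 1616 for 23 members, the spleen tumor of mouse 1615 for 18 and the MLN tumor of mouse 1610 for 16. The lowest was the MLN tumor of mouse 1611 for 25, of mouse 1613 for 14 and of mouse 1615 for 12. Over the 14 tumor libraries, which come from 8 mice, the median Pearson r between pairs of members was 0.51 and 84.2% of 2775 pairs were positive; over all tested genes the median was 0.0 and 49.7% were positive. MRPS14, MRPL34 and MRPL16 had the highest median r with the other members (0.76, 0.75 and 0.74), and MRPS9, MRPL39, MRPS6 and MRPL23 the lowest (-0.17, -0.16, -0.08 and -0.07).

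The tumor libraries with most members at their highest differed in MYC and in immunoglobulin. MYC, the transcription factor of the transgene's name, was at 1400 CPM in the MLN tumor of mouse 1616, at 1737 CPM in the MLN tumor of mouse 1610 and at 2110 CPM in the spleen tumor of mouse 1616, with members summing to 4091, 4065 and 3666 CPM and immunoglobulin shares of 24.6%, 26.3% and 18.2%. The spleen tumor of mouse 1615 had the lowest MYC of the tumors, 312 CPM, and an immunoglobulin share of 1.03%, and its members summed to 3224 CPM. Activated libraries, with MYC between 212 and 231 CPM, summed to between 3234 and 3576 CPM. MYC was higher in tumors than in quiescent cells by 3.45 ± 0.34 (adjusted p = 8.71e-07), higher in tumors than in activated cells by 1.86 ± 0.29 (adjusted p = 3.76e-05), and higher in activated than in quiescent cells by 1.60 ± 0.33 (adjusted p = 0.000517). In most tumor libraries the member sum was below that of every activated library, while MYC was above it in all 14. MKI67, a gene of dividing cells, changed by 4.42, 0.76 and 3.66 in the same 3 comparisons. Of the 11 tested genes of the proliferation list to which it belongs, 11 were higher in tumors than in quiescent cells (median 3.76), 1 was higher and 3 were lower in tumors than in activated cells (median -0.03), and 11 were higher with activation (median 3.66). The 3 lower ones were PCNA, the clamp of DNA polymerase (-1.0), and the replication helicase genes MCM5 (-0.94) and MCM2 (-0.78).

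**Figure D4:**
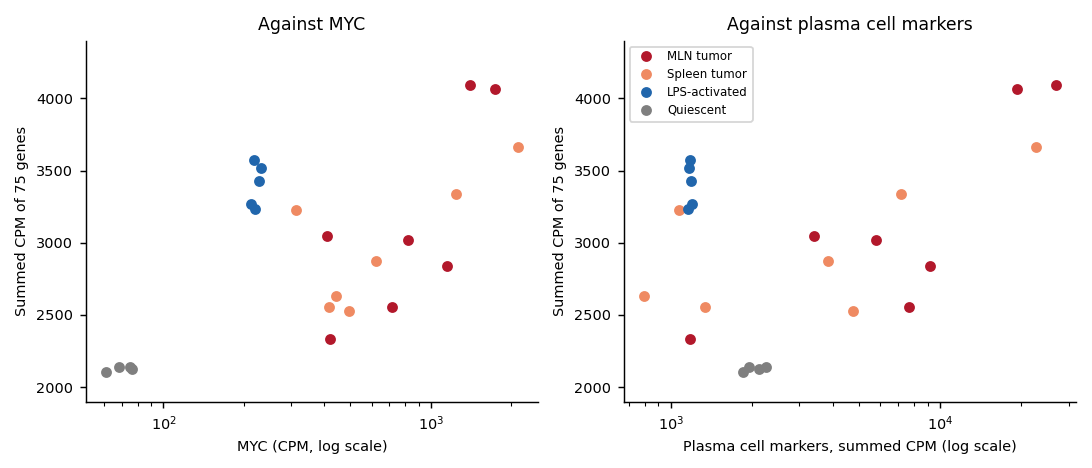
Summed level of the 75 members against the level of MYC (left) and against the summed level of 7 plasma cell markers (right), all in CPM with log horizontal axes, 1 point per library, coloured by group. Activated libraries hold 3234 to 3576 CPM at 212 to 231 CPM of MYC, and tumors, with MYC from 312 to 2110 CPM, hold 2336 to 4091 CPM; the 3 tumor libraries above the activated range are those with the most plasma cell markers, up to 26842.7 CPM.

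Over all 23 libraries, the 10 genes most like the members were found by the Pearson r of their log2 CPM with the members' mean log2 CPM. They were EIF3I (0.985), PSMB7 (0.979), EIF3B (0.979), NDUFA9 (0.977), PDAP1 (0.976), PSMB4 (0.973), NDUFA12 (0.972), ATP5PF (0.971), EIF5A (0.97) and CINP (0.97). EIF3I, EIF3B and EIF5A are cytosolic translation factors, PSMB7 and PSMB4 proteasome subunits, NDUFA9 and NDUFA12 subunits of respiratory complex I and ATP5PF a subunit of the ATP synthase. These libraries share the differences between the 4 groups, which weigh on every such r.

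Other genes of mitochondrial translation were counted in the same way, where 36.9% of all genes were higher and 31.9% lower in tumors than in quiescent cells, 36.2% and 27.0% in tumors than in activated cells, and 25.5% and 34.1% with activation. Of 5 subunits of the mitochondrial ribosome under other names, 3 were higher and 0 lower in tumors than in quiescent cells, 0 were higher and 3 lower than in activated cells, and 4 were higher with activation. CHCHD1, a small-subunit protein, changed by 0.41, -0.35 and 0.76 in these comparisons, GADD45GIP1, a large-subunit protein, by 0.38 and 0.54 in the first and the last, and DAP3, a GTP-binding small-subunit protein, by -0.40 in tumors against activated cells. The list of translation factors, 13 genes, also held LRPPRC, which acts on mRNA stability. Of the 13, 5 were higher and 3 lower in tumors than in quiescent cells, 0 higher and 7 lower than in activated cells. With activation 7 were higher and 2 lower. The elongation factor gene TSFM and the ribosome recycling factor gene MRRF rose by 0.61 and 0.57 in tumors over quiescent cells. LRPPRC, which stabilises mitochondrial mRNAs, and GFM2, a recycling factor, were at -0.78 and -0.76 in tumors against activated cells. GFM1, an elongation factor, and MRRF rose by 1.05 and 1.03 with activation.

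Of 21 genes of ribosome assembly and rRNA modification, 4 rose and 6 fell in tumors against quiescent cells, 4 rose and 5 fell against activated cells, and 5 rose and 6 fell with activation. MTERF3 and NOA1 changed by -0.82 and 0.72 in tumors against quiescent cells, GTPBP10 and RBFA by -0.87 and 0.58 against activated cells, and METTL17 and GTPBP10 by -0.98 and 0.93 with activation. Of 16 mitochondrial aminoacyl-tRNA synthetases, which charge tRNAs, 4 rose and 5 fell, 3 rose and 5 fell, and 5 rose and 4 fell in the same order of comparisons. WARS2 and MARS2 stood at -0.81 and -0.80 in tumors against quiescent cells, LARS2 and FARS2 at 1.45 and 0.70 against activated cells, and RARS2 and MARS2 at 1.02 and -0.95 with activation. Of 14 genes of mitochondrial transcription and RNA processing, 4 rose and 6 fell in tumors against quiescent cells, 0 rose and 5 fell against activated cells, and 6 rose and 4 fell with activation. POLRMT, the mitochondrial RNA polymerase, and TFAM, the transcription and packaging factor of mitochondrial DNA, fell by a log2 change of -0.48 and -0.63 in tumors against quiescent cells; the DNA polymerase gene POLG and MTERF1 stood at -0.77 and -0.69. SUPV3L1, an RNA helicase, and TFAM stood at -0.40 and -0.37 against activated cells, and POLG2 and POLG at -0.88 and -0.83 with activation.

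Of 9 regulators of mitochondrial biogenesis, 2 rose and 6 fell in tumors against quiescent cells, 2 rose and 4 fell against activated cells, and 3 rose and 5 fell with activation. Besides MYC, PPARGC1A, a coactivator of mitochondrial genes, had the largest change, -2.07 in tumors against quiescent cells, 1.02 against activated cells and -3.09 with activation. The genes of the factors whose letters were searched stood at -0.60 (NRF1), -0.38 (GABPA) and -0.45 (YY1) in tumors against quiescent cells, all past the threshold. Of the 11 member genes with the NRF1 letters in their promoters 7 were higher in tumors than in quiescent cells, and of the 24 with the ETS letters 20. Of the 11 with the YY1 letters 10 were higher, and of the 5 with the E-box 5. Among all 75 members 52 were higher, as were 36.9% of all genes. Windows were found for only 66 of the 75 members, so these sets are not fully alike. The genes with the E-box include MRPL20, which rose by 0.97 ± 0.14 in tumors over quiescent cells (adjusted p = 3.1e-05).

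Of 17 genes of mitochondrial protein import, 15 rose and 0 fell in tumors against quiescent cells, 1 rose and 9 fell against activated cells, and 16 rose and 0 fell with activation. TIMM8A, a chaperone of the intermembrane space, changed by 1.28 in tumors against quiescent cells and by 2.30 with activation, and TOMM20, a receptor of the outer membrane, by 1.24 in tumors against quiescent cells. The matrix chaperone genes HSPA9 and HSPD1 stood at -1.41 and -1.08 in tumors against activated cells, and HSPA9 rose by 2.06 with activation. Of 15 genes of the tricarboxylic acid cycle 8 rose and 2 fell, 0 rose and 6 fell, and 9 rose and 0 fell in the same order. The succinate dehydrogenase gene SDHD and the isocitrate dehydrogenase gene IDH3A rose by 0.76 and 0.70 in tumors over quiescent cells and by 1.02 and 1.24 with activation, and FH and IDH3A stood at -0.58 and -0.54 in tumors against activated cells. In MLN against spleen tumors, 0 genes of any of these lists passed.

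**Figure D5:**
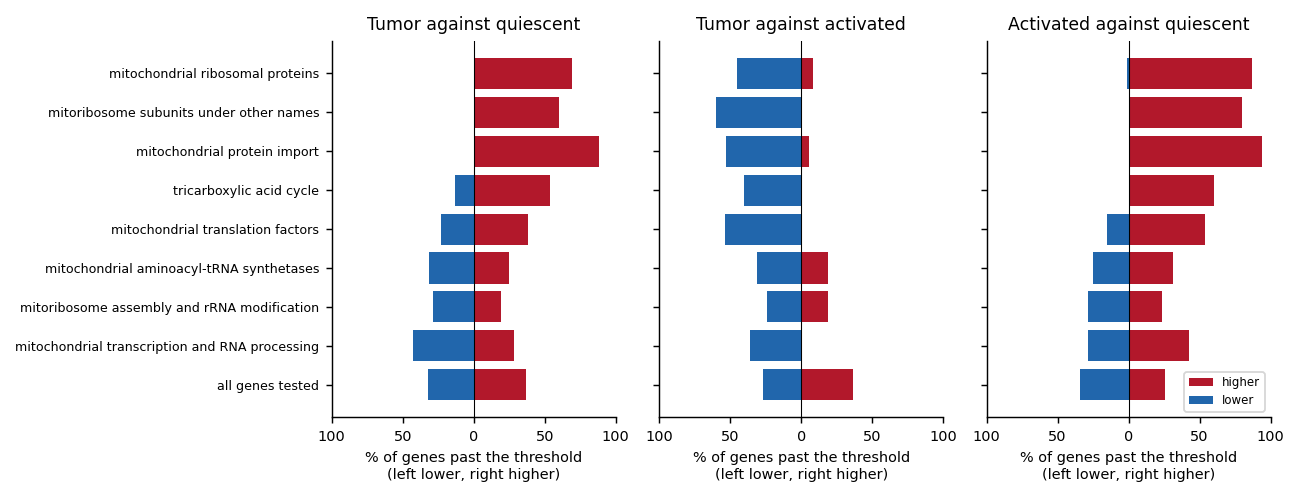
Percent of each mitochondrial gene list, and of all tested genes, called higher or lower in each comparison. In tumors against quiescent cells 52 of 75 members are higher and 0 lower, and of the 17 import genes 15 are higher and 0 lower, while lists of assembly, tRNA synthetase and transcription genes hold calls in both directions.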

How the data were processed

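The deposited table holds estimated counts made by the authors, in 1 column for each library. Its name says TPM, but the unit was read from the values themselves, that is, from values that are not whole and library totals between 13328866 and 25045814. Per the submitters' processing notes, Trim Galore 0.4.0, DESeq2 and the build GRCm39 were used; for the quantifier, nothing is stated (not given in the sources used here). Per the labels' protocols, total RNA was made into stranded libraries. Of 61651 entries, 21282 held values and 17047 were above 0, and merging identical profiles left 15881.

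Estimated counts were rounded and the 11637 genes reaching 1 CPM in 4 libraries were tested in R 4.3.3 with edgeR 4.0.16 (quasi-likelihood, TMM, 2-sided), Benjamini-Hochberg adjustment over all of them and a threshold of 0.05. Levels are CPM scaled by TMM. The SE was taken as the size of the log2 change over the root of the F statistic. Counts of the tumors of 1 mouse were summed, since the design text says equal numbers mark 1 mouse; MLN and spleen tumors were compared over 14 libraries. The deviations of paired tumors from their site means correlated at -0.20, -0.36, 0.41, -0.29, -0.49 and 0.72. limma 3.58.1 (log2(CPM + 1)), DESeq2 1.42.0, other scalings, no filter, no immunoglobulin genes, each tumor site alone and leaving out each replicate were alternatives. The tests were also run on simulated data, whose outcome is not reported here.

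Named members are the 5 highest and 5 lowest changes of each comparison, those called against the majority and a set chosen for function; of other lists, the 2 largest called changes and a few reference genes. The members and lists were chosen with earlier results of these data known. MRPL45, MRPS21 and genes of the mitochondrial genome were not analysed here. Sequencing depth is given as total counts, and their precision covers counting error only.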

Additional observations from a re-analysis of the deposited data

Results flagged for a closer look

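Values of 16 members and of their sum were examined in each of the 4 groups, 68 sets in all, for a library standing apart from the rest of its group by Dixon's criterion, which chance meets in about 1 of 20 sets. It was met in 4. The spleen tumor of mouse 1616 stood above the other spleen tumors for MRPL57 (123.2 CPM), MRPL13 (139.7 CPM) and MRPL37 (138.3 CPM). Quiescent library 1 stood below the other quiescent libraries for MRPL13, at 20.5 CPM. That spleen tumor also had the highest MYC of all libraries, 2110 CPM, and an immunoglobulin share of 18.2%; their part in its values was not tested. Without mouse 1616 the changes of MRPL57 and MRPL13 in tumors against quiescent cells were 1.14 and 0.83.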

How the results depend on the processing

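Of the values of single members in other settings, 1736 kept their direction and side of the threshold, 75 lost the call, 36 gained one and 24 changed sign. The number of members higher in tumors than in quiescent cells was 48 in spleen tumors alone, 37 with quantile scaling and 61 with DESeq2, and 49 to 56 with a replicate left out. The number lower was 0, but 1 with limma on log2(CPM + 1) and without the low-immunoglobulin libraries, 3 with quantile scaling and 0 to 1 with a replicate left out. Against activated cells 3 members were higher and 23 lower in spleen tumors alone. When each of the 14 tumor libraries counted by itself, 3 were higher and 31 lower. With tumor mice of low Y-linked expression alone 1 was higher and 58 were lower. Without immunoglobulin genes 4 were higher and 44 lower, and the median was -0.3, against -0.02 over all genes. The main fit gave medians of -0.19 for the members and 0.09 for all genes. With a replicate left out it was 3 to 6 higher and 28 to 55 lower. With activation 63 to 70 members were higher and 0 to 1 lower with a replicate left out, and 0 were lower with DESeq2, with its size factors in edgeR, with quantile scaling, with no filter and without immunoglobulin genes. Between MLN and spleen tumors the count was 0 in every setting.

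With quantile scaling the signs of MRPL41 (-0.12), MRPL44 (-0.08) and MRPS36 (-0.08) turned in tumors against quiescent cells. There MRPS25 turned with DESeq2 (0.02), with its size factors (0.02), in MLN tumors alone (0.01), without mouse 1613 (0.01) or 1616 (0.02) and in tumor mice with Y-linked expression alone (0.10). Against activated cells MRPL34 turned in tumor mice of low Y-linked expression (-0.08), and MRPS18B (0.06) and MRPS2 (0.04) without the low-immunoglobulin libraries. With activation MRPS24 turned with DESeq2 (0.05), its size factors (0.05), no filter (0.05), no immunoglobulin genes (0.09) and only the 9 control libraries (0.09), and with a replicate left out it ranged between -0.04 and 0.09, being 0.00 without activated library 5, 0.03 without activated library 4 and 0.03 without quiescent library 4. MRPL19 turned between MLN and spleen tumors without mouse 1615 (0.03), in a range of -0.36 to 0.03. The causes were not tested.

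Activated and quiescent libraries share replicate numbers, and the deviations of equal numbers correlated at -0.01, -0.01, -0.02 and 0.0. Tumors of 1 mouse gave values from -0.49 to 0.72 by that measure, so it cannot tell whether equal numbers mark a shared animal. With the replicate block 71 members were higher and 1 lower with activation, as with only these 9 libraries and no block, MRPL38 turned to 0.02 and MRPS24 to 0.10. For MLN against spleen tumors the block by mouse over 6 pairs gave 0 calls and a median change of 0.00 for the members, and changed no call.

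The table gives no transcript lengths, so levels of different members were not compared. Settings by Y-linked expression, without low-immunoglobulin libraries and with the 6 paired mice unblocked were chosen after seeing the data.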
